A study of Mus musculus with 12 samples.

Results

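miR-486 was measured here as 2 arms, the 5p and the 3p strand of a hairpin stem, each listed under an a and a b name. The a and b names belong to overlapping hairpins on opposite strands. The 4 names (mmu-miR-486a-5p, mmu-miR-486b-5p, mmu-miR-486a-3p and mmu-miR-486b-3p) were taken by name from the 1915 mouse microRNA names of the series, and all 4 passed the filter on low counts. The libraries hold small RNA from extracellular vesicles, the membrane-bound particles that cells release, precipitated with ExoQuick from plasma. The mice were males of the inbred strain C57BL/6J. In 6 libraries the mice had bile duct ligation (BDL), which ties off the bile duct and injures the liver, and in 6 they had a sham operation. All were taken 8 days after surgery, and the labels give no age and no allele or agent beyond the surgery. Although the source and tissue labels give liver, the site label and the protocol give vesicles from plasma. The liver microRNA miR-122-5p was 0.466 to 3.58% of counts in sham and 9.0 to 43.1% in BDL libraries. Total mouse counts ran from 121003 to 3506914 per library. Even-numbered libraries have sample codes ending in 26 and odd-numbered ones in 24, and the labels do not say what these digits stand for. The BDL libraries ending in 26 (BDL 2, 4 and 6) held 121003 to 666310 counts, and sham 6, with 659302, was the only other library that shallow.

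A microRNA is cut from a hairpin as a short duplex, of which 1 strand, the guide, is kept in an Argonaute protein while the other, the passenger, is mostly lost. In miR-486 the 5p strand is the guide. The miR-486 duplex is fully paired, and Argonaute 2 slices the 3p passenger strand so that the guide can act. The same enzyme matures miR-451a, the other main microRNA of the red cell, without Dicer. miR-486 is abundant in red cells and is also made in striated muscle. Its hairpin Mir486 lies on chromosome 8, 23142555 to 23142682 on the plus strand of GRCm38, in an intron of Ank1, the gene of ankyrin-1, which anchors the red cell membrane to its skeleton. RefSeq lists mir-486b as Mir3107, 23142573 to 23142662, on the opposite strand and wholly inside Mir486. In GENCODE M21 both also fall inside Gm15816, an antisense RNA gene, and Mir486 overlaps no exon of it.

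The miR-486 arms were set against other red cell and muscle microRNAs of the same libraries, and the mature sequences of 5 of these are given to show which could share targets. Of 12 names looked up, the 4 of miR-486 and 8 compared with them, 5 matched the RefSeq table (GRCm38.p6). Capitals mark the seed, bases 2 to 8, which pairs with target RNA.
miR-451a: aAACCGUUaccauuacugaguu
miR-16-5p: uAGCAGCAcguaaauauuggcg
miR-25-3p: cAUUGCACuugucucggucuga
miR-92a-3p: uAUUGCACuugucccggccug
miR-206-3p: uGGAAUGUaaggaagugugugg
Among these 5, miR-25-3p and miR-92a-3p share the seed AUUGCAC, and the seeds of the other 3 differ from it and from each other. The seeds of miR-1a-3p, miR-133a-3p, miR-122-5p and miR-486 were not compared.

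The a and b names did not give separate measurements. The counts of mmu-miR-486a-5p and mmu-miR-486b-5p, from 29248 in BDL 4 to 1005160 in sham 1, were identical in 12 of 12 libraries. mmu-miR-486b-3p exceeded mmu-miR-486a-3p (101 reads in BDL 4 to 7834 in sham 1) in 12 of 12 libraries, by 3 to 185 reads or 1.34 to 5.33%. Each arm is therefore reported once, under its a name. The excess of the b name over the a name of the 3p arm was itself larger after BDL, at 3.38 ± 1.12% against 1.83 ± 0.547% for sham (n = 6 each, SD; two-sided exact permutation p = 0.00866). The groups overlapped, since BDL 5 had 2.11% and sham 2 and 6 had 2.49% and 2.56%. BDL 4 had 3 such extra reads, and without the 3 BDL libraries ending in 26 the difference was 0.855 percentage points and did not pass the test (exact permutation p = 0.0952).

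Of all names, miR-486-5p had the most reads in these vesicles. It held the highest count in 10 of 12 libraries, all 6 sham libraries among them. miR-122-5p led in the other two, BDL 1 and BDL 4. A microRNA read spans the whole molecule, so counts of different names were compared without a length correction. With duplicate names counted once, miR-486-5p took 57.0, 60.6 and 67.4% of sham counts (lowest, median and highest) and 20.0, 39.3 and 55.9% of BDL counts. No BDL library reached the lowest sham library. The means were 61.1 ± 3.44% in sham and 38.7 ± 12.6% after BDL (SD, n = 6 each; two-sided exact permutation p = 0.00216, the smallest that 6 against 6 libraries allow). Lower shares without overlap were found for 8.31% of 337 names. In the shallowest library, BDL 4, the share was 31.9% with a 95% Wilson interval of 31.6 to 32.2%, which covers counting error only.

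**Figure D1:**
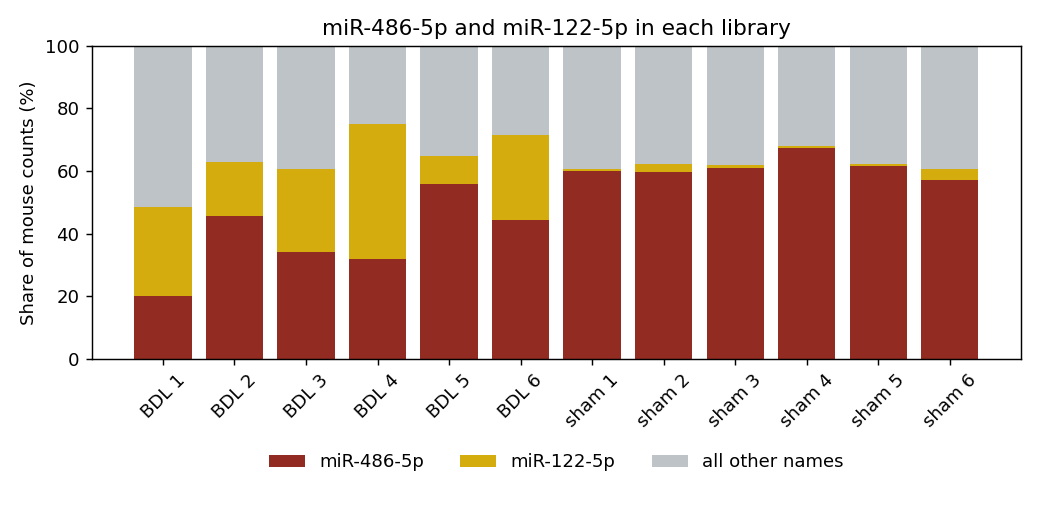
Share of mouse counts per library, in percent, with each duplicate name counted once: miR-486-5p (dark red), miR-122-5p (yellow) and all other names (grey). miR-486-5p makes up 57.0 to 67.4% of the 6 sham libraries and 20.0 to 55.9% of the 6 BDL libraries, where miR-122-5p takes 9.0 to 43.1%.

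Shares of a library sum to a fixed total, and miR-122-5p rose in the same BDL libraries. With miR-122-5p taken out of the total, the share of miR-486-5p averaged 62.003 ± 3.01% for sham and 51.3 ± 12.7% for BDL (n = 6 each; exact permutation p = 0.026). The groups then overlapped, with BDL 5 at 61.4% and BDL 6 at 61.0% inside the sham range of 59.1 to 67.8%. The lowest value was that of BDL 1, at 28.0%. The difference, BDL minus sham, was -22.4 percentage points with miR-122-5p counted and -10.7 without it. By code ending, without miR-122-5p, the mean share was 45.3% in BDL and 61.3% in sham for 24, and 57.4% and 62.7% for 26 (n = 3 each; an exact test of 3 against 3 cannot go below 0.1).

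After scaling between libraries, the 5p arm did not pass the test. In CPM, counts scaled to a common library size by trimmed means (TMM), miR-486-5p had 121847, 292622 and 376868 CPM in BDL (lowest, median and highest) and 348662, 363785 and 543119 CPM in sham. BDL 2, 5 and 6 lay within the sham range, and BDL 1, 3 and 4 lay below it. The log2 fold change, BDL minus sham, was -0.49 ± 0.28 (SE; edgeR quasi-likelihood test, adjusted p = 0.162 over 341 names; unadjusted p = 0.0914). It did not pass in any of 26 other settings, in which it ran from -0.70 to -0.41 with adjusted p from 0.0531 to 0.372. With miR-122-5p left out, the setting nearest to the threshold, it was -0.61 ± 0.24 (edgeR adjusted p = 0.0531). The b names stayed in the CPM totals and among the 341 names. With duplicate names left out (333 names) the log2 fold change was -0.58 ± 0.28 (edgeR adjusted p = 0.1005). In bulk plasma, fewer vesicles or source cells of a type and less RNA in each cannot be told apart.

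The 3p passenger arm fell by more. miR-486-3p had 686, 887 and 1427 CPM in BDL (lowest, median and highest) and 2717, 3287 and 3941 CPM in sham. Every BDL library lay below every sham library, which held in the lower direction for 9.38% of the 341 names. The log2 fold change was -1.74 ± 0.24 (SE; edgeR adjusted p = 6.53e-05), a 3.33-fold lower level, and its p ranked 8th of 341. In the same fit 42.8% of names passed the threshold of adjusted p under 0.05, with 24.6% higher and 18.2% lower. The 3p arm passed in 26 of 26 other settings, from -2.08 to -1.44. With duplicate names left out it was -1.83 (edgeR adjusted p = 4.60e-05). As a share of the library it came to 0.526 ± 0.0608% in sham and 0.145 ± 0.0553% after BDL (n = 6 each, SD; exact permutation p = 0.00216), again without overlap. The count behind it in BDL 4 was 101 reads, a share of 0.11% with a Wilson interval of 0.0907 to 0.134%. Among all names of a library it ranked 18th to 27th in sham and 34th to 53rd in BDL.

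**Figure D2:**
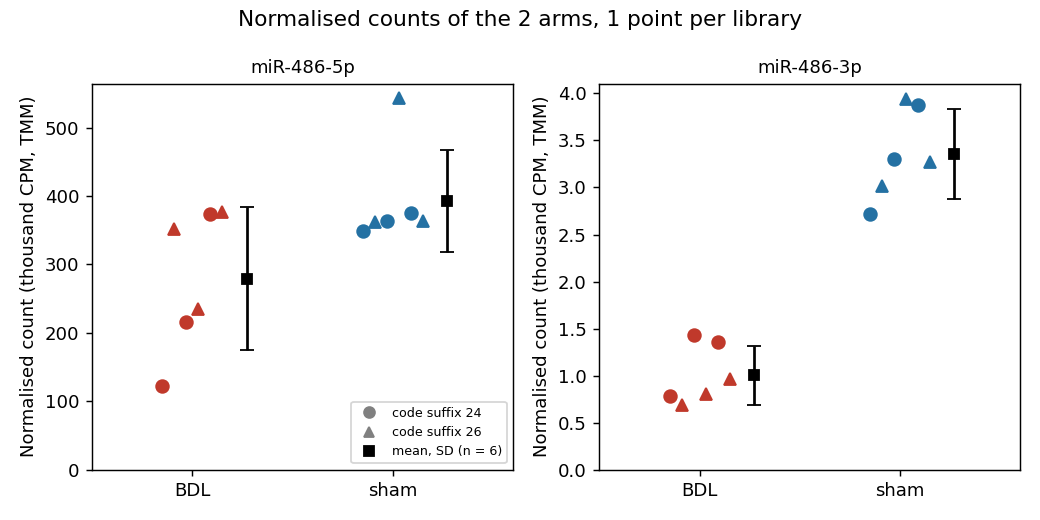
Normalised counts of miR-486-5p (left) and miR-486-3p (right) in 1000 CPM with TMM scaling, 1 point per library, circles for sample codes ending in 24 and triangles for 26; squares and bars give the mean and SD of 6 libraries. The groups overlap for the 5p arm (BDL 121847 to 376868 CPM, sham 348662 to 543119) and not for the 3p arm (BDL 686 to 1427, sham 2717 to 3941).

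The ratio of the 2 arms within a library needs no scaling between libraries, and it moved toward the guide in BDL. Sham libraries held 96.7, 115.5 and 137.8 reads of miR-486-5p for each read of miR-486-3p (lowest, median and highest), and BDL libraries held 151.6, 282.3 and 512.0. No sham library reached the lowest BDL value. The 3p arm was 0.856 ± 0.107% of miR-486 reads in sham and 0.408 ± 0.194% in BDL (SD, n = 6 each). The closest pair was BDL 3, at 0.655% with a Wilson interval of 0.635 to 0.676%, and sham 4, at 0.72% with 0.699 to 0.743%, so these intervals do not meet. On the log2 scale, with a pseudocount of 0.5, the arm ratio averaged 8.07 ± 0.70 after BDL and 6.87 ± 0.18 after sham surgery (n = 6 each, SD). The difference was 1.20 (two-sided exact permutation p = 0.00216), a 2.3-fold higher ratio. With the b names it was 1.18.

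The size of this difference varied with the code ending. In libraries ending in 24 the arm ratio was 7.54 ± 0.49 in BDL and 6.79 ± 0.20 in sham, a difference of 0.75. In libraries ending in 26 it was 8.59 ± 0.41 and 6.94 ± 0.16, a difference of 1.66 (SD, n = 3 each). The groups did not overlap within either ending. The BDL libraries ending in 26 are also the shallow ones, and the part of depth in the larger difference was not tested. Without those 3 libraries the difference was 0.68 (exact permutation p = 0.0119). The scaled counts of each arm were tested by edgeR for a difference between endings, and neither arm passed. The values were 0.21 ± 0.55 (SE, edgeR adjusted p = 0.852) for the 5p arm and -0.59 ± 0.43 (adjusted p = 0.473) for the 3p arm. Whether the arm ratio itself differed between endings was not tested.

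Changes of arm ratio were common in these libraries. Of 62 hairpins with both arms past the low-count filter, 16 (25.8%) had groups that did not overlap, and in 10 (16.1%) the more abundant arm was relatively higher in BDL, as in miR-486. The median difference over the 62 hairpins was -0.10, with quartiles of -0.97 and 1.04. miR-486 ranked 14th from the top, and adjusted over the 62 its exact permutation p was 0.00839. An adjusted p under 0.05 was found for 23 of the 62 hairpins (37.1%). The difference in miR-486 therefore stood outside the quartiles but was not among the largest, which reached 3.12.

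**Figure D3:**
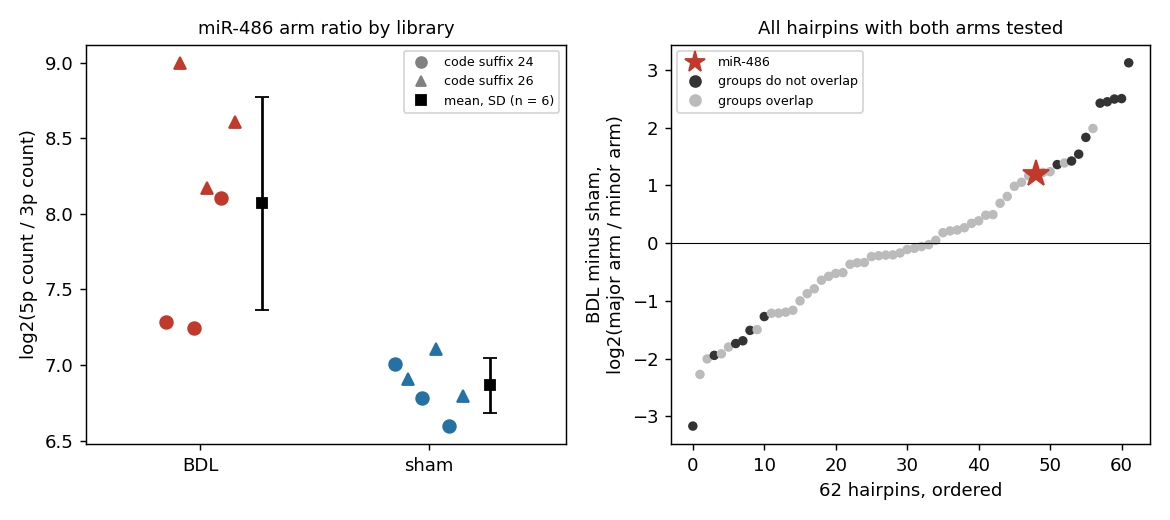
Left, log2 ratio of 5p to 3p counts of miR-486, 1 point per library, with symbols as for the normalised counts; BDL libraries sit at 7.24 to 9.0 and sham libraries at 6.6 to 7.11. Right, the BDL minus sham difference of the log2 ratio of the more to the less abundant arm for 62 hairpins in order of size, dark where the groups do not overlap; miR-486 (star) is at 1.20.

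The 2 arms were set against other red cell microRNAs by their count ratio within a library. In all 16 such ratios were compared, 8 per arm, and 7 passed the test (two-sided exact permutation, Benjamini-Hochberg adjusted over the 16). Relative to miR-451a, the Dicer-independent red cell microRNA, both arms were higher in BDL. The log2 ratio of miR-486-5p to miR-451a was 4.84, 5.38 and 5.79 in sham (lowest, median and highest) and 5.70, 7.42 and 9.48 in BDL. Only BDL 1, at 5.70, lay within the sham range. The mean difference was 2.20 (exact permutation p = 0.00433, adjusted p = 0.0173), and by code ending it was 1.44 for 24 and 2.96 for 26. For miR-486-3p against miR-451a the mean rose from -1.55 ± 0.26 to -0.55 ± 0.69 (SD, n = 6 each; exact permutation p = 0.0108, adjusted p = 0.0346), with BDL 1, at -1.59, inside the sham range. Without BDL 2 this difference was 0.79 and no longer passed (exact permutation, adjusted p = 0.0519), and likewise without sham 2 (0.92, adjusted p = 0.0623) or sham 5 (0.95, adjusted p = 0.0554).

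Against miR-92a-3p and miR-25-3p, which shares its seed, the 3p arm was lower and the 5p arm did not pass. The 2 arms differ by the arm ratio difference of 1.20 against every partner, so this gap is not a separate result. The log2 ratio of miR-486-5p to miR-92a-3p was 5.15 ± 0.72 for BDL and 5.14 ± 0.39 for sham (n = 6 each, SD; exact permutation p = 0.961), with overlap. That of miR-486-3p to miR-92a-3p fell from -1.72 ± 0.37 to -2.91 ± 0.37 (exact permutation p = 0.00216, adjusted p = 0.0115, n = 6 each), and no BDL library reached the sham range. Against miR-25-3p the 5p arm differed by 0.29 (exact permutation p = 0.634), with BDL values from 2.79 to 6.10 on both sides of the sham range of 4.42 to 4.96. By code ending that 5p difference was -0.68 for 24 and 1.25 for 26, so its sign turned. The 3p arm differed by -0.92 (exact permutation p = 0.013, adjusted p = 0.0346; -1.43 for code ending 24 and -0.40 for 26), a call lost on leaving out any of BDL 2, 3, 5 or 6 or any 1 sham library (adjusted p up to 0.0866). Against miR-16-5p, abundant in blood cells, neither arm passed, with differences of 1.52 for 5p (exact permutation p = 0.0606, adjusted p = 0.121) and 0.31 for 3p (p = 0.55, adjusted p = 0.677). Without BDL 1 the 5p difference was 1.87 and passed (exact permutation, adjusted p = 0.0476).

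Of a list of 11 red cell names besides miR-486, 9 could be tested by edgeR. Of these, 1 was higher, 5 were lower and 3 did not pass, where 24.6% of all 341 names were higher and 18.2% lower. Their median log2 fold change was -1.31, against 0.03 for all 341 names. miR-451a was lowest, at -2.63 ± 0.33 (SE; edgeR adjusted p = 3.51e-05), and miR-16-5p had -2.06 ± 0.46. miR-363-3p, miR-93-5p and miR-15b-5p were the other lower names, at -1.75, -1.42 and -1.31. miR-185-5p was the higher one, at 1.09 ± 0.26 (edgeR adjusted p = 0.00291). miR-144-3p, made from the same transcript as miR-451a, had -0.60 ± 0.58 (adjusted p = 0.437). For miR-25-3p the value was -0.63 (adjusted p = 0.16), and for miR-92a-3p it was -0.56 (adjusted p = 0.0679). The list as a whole took 1.397 to 4.84% of BDL and 4.27 to 7.19% of sham counts. The miR-486-5p log2 fold change of -0.49 lay above all 5 of the lower names, and that of miR-486-3p, -1.74, among them.

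Striated muscle is another known source of miR-486, and its microRNAs made up a small share. A list of 7 muscle names took 0.0873 to 0.261% of BDL counts and 0.181 to 0.363% of sham counts. The red cell list, at 1.397 to 4.84% of BDL and 4.27 to 7.19% of sham counts, was also far under the share of miR-486-5p. The source of miR-486 was not tested. Of 4 that could be tested, 3 were lower and 1 did not pass (all names: 18.2% lower). These were miR-206-3p, of skeletal muscle (-1.94 ± 0.42, SE; edgeR adjusted p = 0.00176), miR-499-5p, of heart and slow muscle (-1.87 ± 0.40, adjusted p = 0.0015), and miR-1a-3p (-1.20 ± 0.39, adjusted p = 0.0194). miR-133a-3p had -0.34 ± 0.47 (adjusted p = 0.602). The log2 ratio of miR-486-5p to miR-206-3p was 13.8 ± 1.33 for BDL and 12.1 ± 0.69 for sham (n = 6 each, SD; exact permutation p = 0.0216, adjusted p = 0.0495). miR-206-3p had 0 reads in BDL 4, so that value rests on the pseudocount, and without BDL 4 the difference was 1.25 instead of 1.67 (exact permutation, adjusted p = 0.0693). By code ending it was 0.59 for 24 and 2.74 for 26. This call was lost without any 1 of 11 libraries (all but BDL 1), with adjusted p up to 0.0989. The other 5 ratios to muscle names did not pass, the largest being -1.03 for miR-486-3p to miR-133a-3p (exact permutation p = 0.19, adjusted p = 0.305). Without BDL 4, which had 6 reads of miR-133a-3p, that ratio differed by -1.65 (adjusted p = 0.0148), and that of miR-486-5p to miR-1a-3p by 1.18 in place of 0.83 (adjusted p = 0.00693), both past the threshold.

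The largest ratio differences were to miR-122-5p, the main microRNA of hepatocytes. Sham libraries had a log2 ratio of miR-486-5p to miR-122-5p of 3.99 to 7.01, and BDL libraries of -0.50 to 2.63, without overlap. The difference was -5.10 for the 5p arm and -6.30 for the 3p arm (exact permutation p = 0.00216 and adjusted p = 0.0115 for each, n = 6 each). Of 5 hepatocyte names, 4 could be tested, of which 2 were higher (miR-122-5p and miR-192-5p) and 2 did not pass (all names: 24.6% higher). Those 2 were miR-194-5p, with a log2 fold change of 0.78 (edgeR adjusted p = 0.124), and miR-148a-3p, with -0.32 (adjusted p = 0.406).

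**Figure D4:**
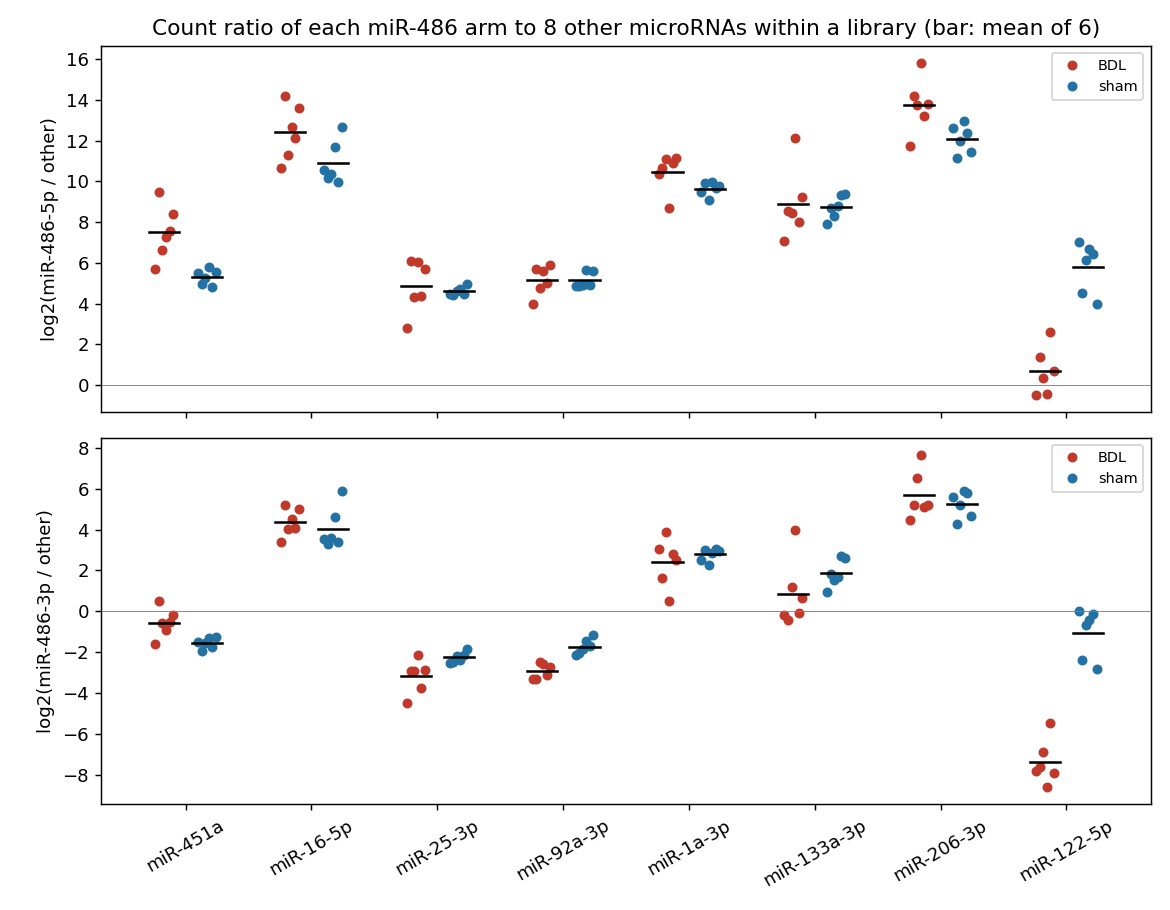
Log2 count ratio within a library of miR-486-5p (top) and miR-486-3p (bottom) to 8 other microRNAs, 1 point per library, BDL in red and sham in blue, with bars at the means of 6. For miR-92a-3p the groups overlap with the 5p arm (means 5.15 and 5.14) and not with the 3p arm (-2.91 and -1.72); for miR-122-5p they do not overlap with either arm.

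Names of other blood and vessel cells were more often lower than higher. Among 6 leukocyte names, 3 were lower, 0 higher and 3 did not pass (all names: 18.2% lower and 24.6% higher), and the list took 0.135 to 0.675% of BDL and 0.593 to 1.24% of sham counts. Among 6 platelet and endothelial names, 3 were lower, 1 higher and 2 did not pass (against the same shares of all names), with 0.735 to 2.88% of BDL and 1.09 to 2.06% of sham counts. The median log2 fold changes were -1.06 and -1.01, and miR-223-3p, which did not pass, was in both lists. The lower leukocyte names were miR-142a-3p, miR-142a-5p and miR-150-5p, and miR-155-5p and miR-146a-5p did not pass. In the other list miR-126a-3p, miR-126a-5p and miR-222-3p were lower and miR-221-3p did not pass. The higher name was miR-24-3p, at 1.06 (edgeR adjusted p = 0.0029). The part of these cells in the values of miR-486 was not tested.

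The 2 arms had different nearest patterns across the libraries. The 5 names with the highest Pearson r of log2 CPM to miR-486-5p over 12 libraries were miR-1306-3p (0.893), miR-1306-5p (0.763), miR-5106 (0.743), miR-5112 (0.651) and miR-1981-5p (0.646). None of these 5 passed the edgeR threshold between BDL and sham, with log2 fold changes from -0.56 to 0.02. Those nearest to miR-486-3p were miR-451a (0.943), miR-148b-3p (0.928), miR-128-3p (0.928), miR-205-5p (0.913) and let-7i-5p (0.894), all 5 lower in BDL. The r between the arms themselves was 0.592, and 0.264 once each group's mean was taken out. With the group means taken out, the r of the 5 names nearest to miR-486-3p fell to between 0.192 (miR-205-5p) and 0.60 (miR-148b-3p), with miR-451a at 0.572. For the 5 nearest to miR-486-5p it was then 0.496 (miR-1981-5p) to 0.863 (miR-1306-5p). These values describe 12 libraries in 2 groups that share depth and scaling.

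**Figure D5:**
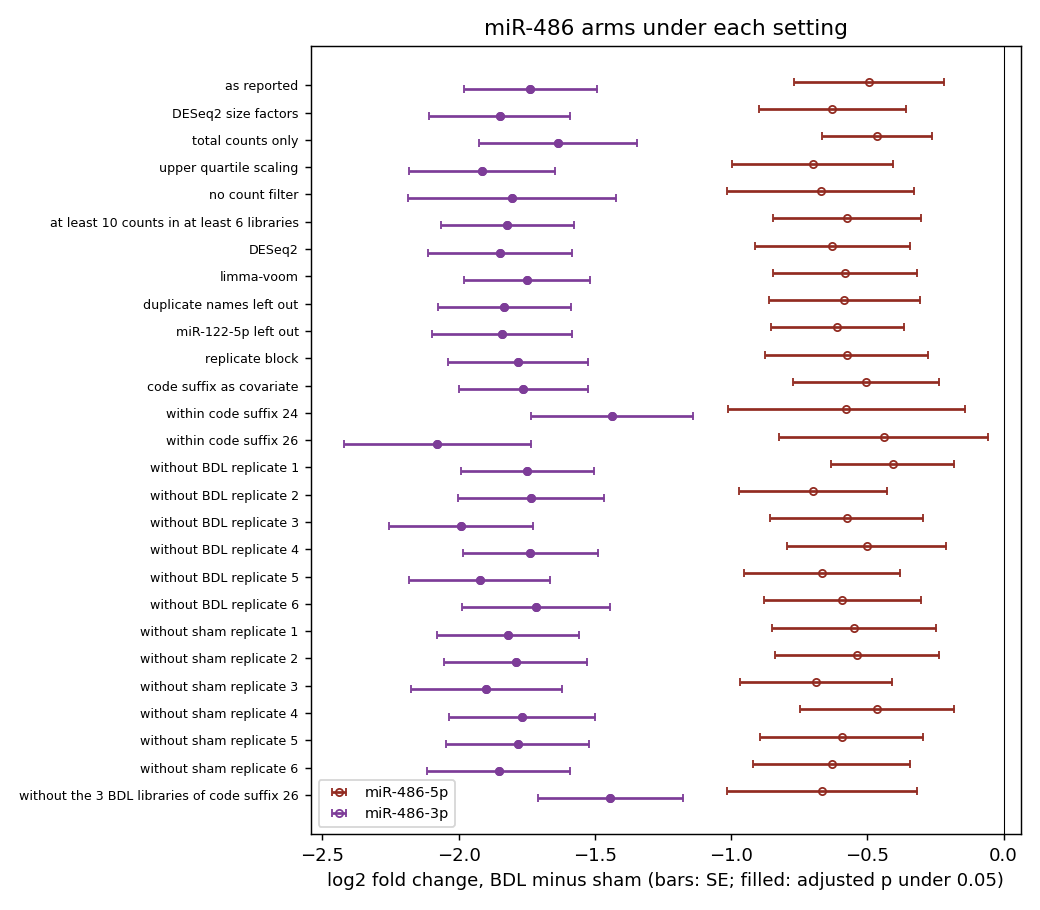
Log2 fold change, BDL minus sham, of miR-486-5p (dark red) and miR-486-3p (purple) as reported and under 26 other settings, with SE bars, filled where the adjusted p was under 0.05. The 5p arm stays between -0.70 and -0.41 and is never filled, and the 3p arm stays between -2.08 and -1.44 and is always filled.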

How the data were processed

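Small RNA from vesicles of 250 µl plasma was made into libraries with 40 ng of RNA and 15 PCR cycles, per the labels' protocols, with no molecular identifiers described. The authors deposited a table of counts, whole reads per microRNA name, with 1 column for each of 12 libraries. The submitters' processing notes name cutadapt and STAR; tool versions, genome build and how reads matching several names were handled were not given in the sources used here. Then 67 names of other species were left out. Counts of all 1915 mouse names were tested in R 4.3.3 with edgeR 4.0.16 (quasi-likelihood F test, TMM, names with low counts removed by filterByExpr, Benjamini-Hochberg adjustment over 341 names), and with DESeq2 1.42.0 and limma 3.58.1 (voom) as alternatives. The edgeR steps were also run on simulated counts with known changes, as many up as down. Those counts treated all names as independent and did not model the duplicate names or the rise of miR-122-5p. SE is the fold change over the square root of F, and log2 CPM values carry a prior count of 2. Single values per library were tested by two-sided exact permutation over 924 splits. For shares, 5 names whose counts repeat another name's, or nearly so for mmu-miR-486b-3p, were left out of the total. The labels do not say that each library is 1 mouse, and 2 libraries of a group share each first digit of the sample code, so p-values measure the spread between libraries. Named microRNAs were the members, the listed cell type names that could be tested, the 8 ratio partners and the 5 nearest patterns per arm. Other arm ratios and the a-b excess were chosen after values were seen. The members and lists were chosen with earlier results of these data known.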

Additional observations from a re-analysis of the deposited data

Results flagged for a closer look

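Among 44 sets of 6 libraries, 3 contained 1 library distant from the other 5, where chance gives about 1 in 20. In sham 4 the log2 CPM of miR-486-5p was 19.05, against 18.52 in the next sham library. Its TMM scaling factor was 0.74, the lowest of the 12, and its share of miR-486-5p was 67.4% against 61.5% in the next. In BDL 4, the shallowest library, the log2 ratio of miR-486-5p to miR-1a-3p was 8.68, with the next BDL library at 10.35. In the same library the log2 ratio of miR-486-3p to miR-133a-3p was 3.96, with the next at 1.19; it rests on 101 and 6 reads.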

How the results depend on the processing

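The number of names past the threshold (146) ran from 102 to 166. Both fold changes, both shares and the arm ratio kept their direction in every alternative run, and their side of the threshold except in exact tests of 3 libraries or means against 3, which cannot pass it. Leaving out 1 library at a time, the 5p fold change ran from -0.70 to -0.41, the 3p from -1.99 to -1.72, the arm ratio difference from 1.02 to 1.37, and the share differences from -25.9 to -18.7 (5p) and from -0.397 to -0.359 percentage points (3p). Of the 16 ratios 4 to 8 passed, with 4 without BDL 2, sham 2 or sham 5. The ratio differences whose sign changed ran from -0.14 to 0.24 (miR-486-5p to miR-92a-3p), -0.47 to 0.54 (miR-486-5p to miR-133a-3p) and -0.67 to 0.0017 (miR-486-3p to miR-1a-3p), none past the threshold in the reported analysis. Within code endings (24, then 26; 3 against 3, no test) these were -0.31 and 0.34, -0.67 and 1.02, and 0.64 and -1.39, and the sign also turned for miR-486-5p to miR-25-3p (-0.68 and 1.25) and miR-486-3p to miR-206-3p (-0.16 and 1.08). With the replicate block, 0 of the 16 ratios passed (exact sign-flip test, smallest p 0.0312, smallest adjusted p 0.1), the 5p fold change was -0.58 (edgeR adjusted p = 0.141), the 3p -1.78 (adjusted p = 1.96e-04) and the arm ratio difference 1.20 (p = 0.0312); same-numbered libraries did not deviate together (r from -0.0886 to 0.311), and the libraries share only a number; 2 of 6 BDL libraries correlated best with the sham library of their number. With 1 mean per first digit of the sample code, the arm ratio, both shares and the a-b excess each had an exact permutation p of 0.1. That is the smallest 3 against 3 allows. The edgeR fold changes were not refitted by first digit. Without the 3 BDL libraries ending in 26 (this and the former setting were chosen after seeing the data), the a-b excess of the 3p arm fell to 0.855 (cause not tested). Upper quartile scaling moved the median of all names by -0.23 and DESeq2 size factors by -0.14. Relative to that median the 5p arm stood at -0.50 and -0.52 and the 3p arm at -1.71 and -1.74. Names higher were 57.5% of those past the threshold as reported and 44.1% with upper quartile scaling. Depth limits the 3p arm most in BDL 4.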

Other observations

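Of 3 hairpins of other red cell names, 2 passed the test for a changed arm ratio, 1 in each direction, where 23 of all 62 hairpins (37.1%) passed it. In miR-185 the log2 ratio of the more to the less abundant arm rose from 3.68 ± 0.80 in sham to 5.67 ± 0.82 in BDL (SD, n = 6 each; exact permutation p = 0.00649, adjusted p = 0.0212 over 62 hairpins). In miR-93 it fell from 4.76 ± 0.80 to 2.96 ± 1.07 (exact permutation p = 0.0108, adjusted p = 0.0305, n = 6 each). In miR-25 the difference was -1.19 and did not pass after adjustment (exact permutation p = 0.0455, adjusted p = 0.0939, n = 6 each). All 3 had overlapping groups, unlike miR-486. Among the hairpins of all kinds, the largest difference toward the more abundant arm was 3.12, in miR-1934, and the largest the other way was -3.17, in miR-143. These hairpins were named after their values were seen.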
